A study of Arabidopsis thaliana with 6 samples.

Results

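A set of 103 genes, of 37336 in the deposited table, had transcripts in *Arabidopsis thaliana* siliques of the *eml1 eml3* double mutant and few or none in wild type (WT) siliques. Members were chosen by their normalized read counts in these same libraries. The mean of the 3 double-mutant (dm) libraries had to be at least 20, the dm mean plus 1 had to be at least 12 times the WT mean plus 1, and the lowest dm library had to stand above the highest WT library. Those conditions held for 111 genes, or 0.297% of all genes in the table, and 8 of them were left out by name, which leaves the 103. The sizes of the members' own differences between dm and WT are therefore a description, with no test.

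Polyadenylated RNA was sequenced from selfed siliques harvested between days 1 and 5 after pollination, with 3 libraries of the dm and 3 of WT. The dm libraries carry the alleles *eml1-2* and *eml3-4* together, and the WT libraries carry neither. The EML proteins combine an ENT domain with Tudor-like domains and are named histone readers by the study. The sources used here give neither the parent accessions of the mutant alleles and of the WT line nor any backcrossing, so an effect of the mutations and a difference in strain background cannot be told apart in these libraries. No label says whether the replicate libraries are from different plants, so p-values reflect only how these 6 libraries vary, and that variation may be technical.

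Genes that are on in one line of Arabidopsis and off in another are common among disease resistance genes, F-box genes, transposon-derived genes and pseudogenes. Such a gene can be silent because its DNA is methylated, because the line carries a deleted or broken copy, or because its activator is missing. A read count shows which lines have transcript and not which of these states applies. A silique holds fruit wall, seed coat, endosperm and embryo, and in bulk RNA fewer cells of a type and less RNA per cell cannot be told apart.

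The labels were checked on the targeted genes first. EML3 (AT5G13020) had 190, 173 and 198 normalized counts in the dm libraries, against 2255, 2129 and 2718 in the WT libraries (log2 change -3.65 ± 0.15, SE, limma adjusted p = 2.24e-06). EML1 (AT3G12140) had 1236, 1123 and 1072 in dm against 1190, 1289 and 1365 in WT, and its allele is not checked by a count over all of its exons. Recovered depth was 26771227 to 39246167 reads per library. Single libraries stood apart in both genotypes. The summed level of 5 seed storage genes was 47.9, 54.7 and 46248 in the dm libraries against 243, 143 and 54.1 in the WT libraries, and that of 5 embryo regulators was 195, 211 and 1629 in dm against 1077, 1120 and 789 in WT. The summed level of 4 pollen genes was 4323, 2659 and 2791 in dm against 4837, 5005 and 11976 in WT. The third dm library was thus high in seed storage genes, and the third WT library in pollen genes. Fruit wall genes, the defining markers of the labelled tissue, were present in each library, with sums of 5593 to 6056 in dm and 5988 to 6716 in WT. Of 3 genes of root hairs, EXPA7 and SHV2 were at or near 0 everywhere, and the list summed to between 3.25 and 40.3 in dm and between 0 and 11.8 in WT.

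The 103 genes ranged widely in level. Their dm means ran from 20.7 to 3190 normalized counts with a median of 72.3, and their WT means ran from 0 to 56.5 with a median of 1.21. In dm, 39 genes averaged at least 100, 13 at least 500 and 35 under 50. In WT, 30 genes had no read in any library, 18 had 1 to 3 reads in the 3 libraries together, and 55 had more than 3. The name nearly silent holds for the 84 genes whose WT mean was under 5. It does not describe 11 genes whose WT mean was at least 10, which were expressed in WT at a low level. All 103 passed the filter of a mean of at least 10 over the 6 libraries and were fitted with the other genes. The required dm mean of at least 20 fixed this in advance. In limma 87 of them passed the threshold, beside 6.79% of all 21751 tested genes in either direction, 3.69% higher in dm and 3.1% lower in dm. The members were chosen from this contrast, so nothing is read from that share.

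**Figure D1:**
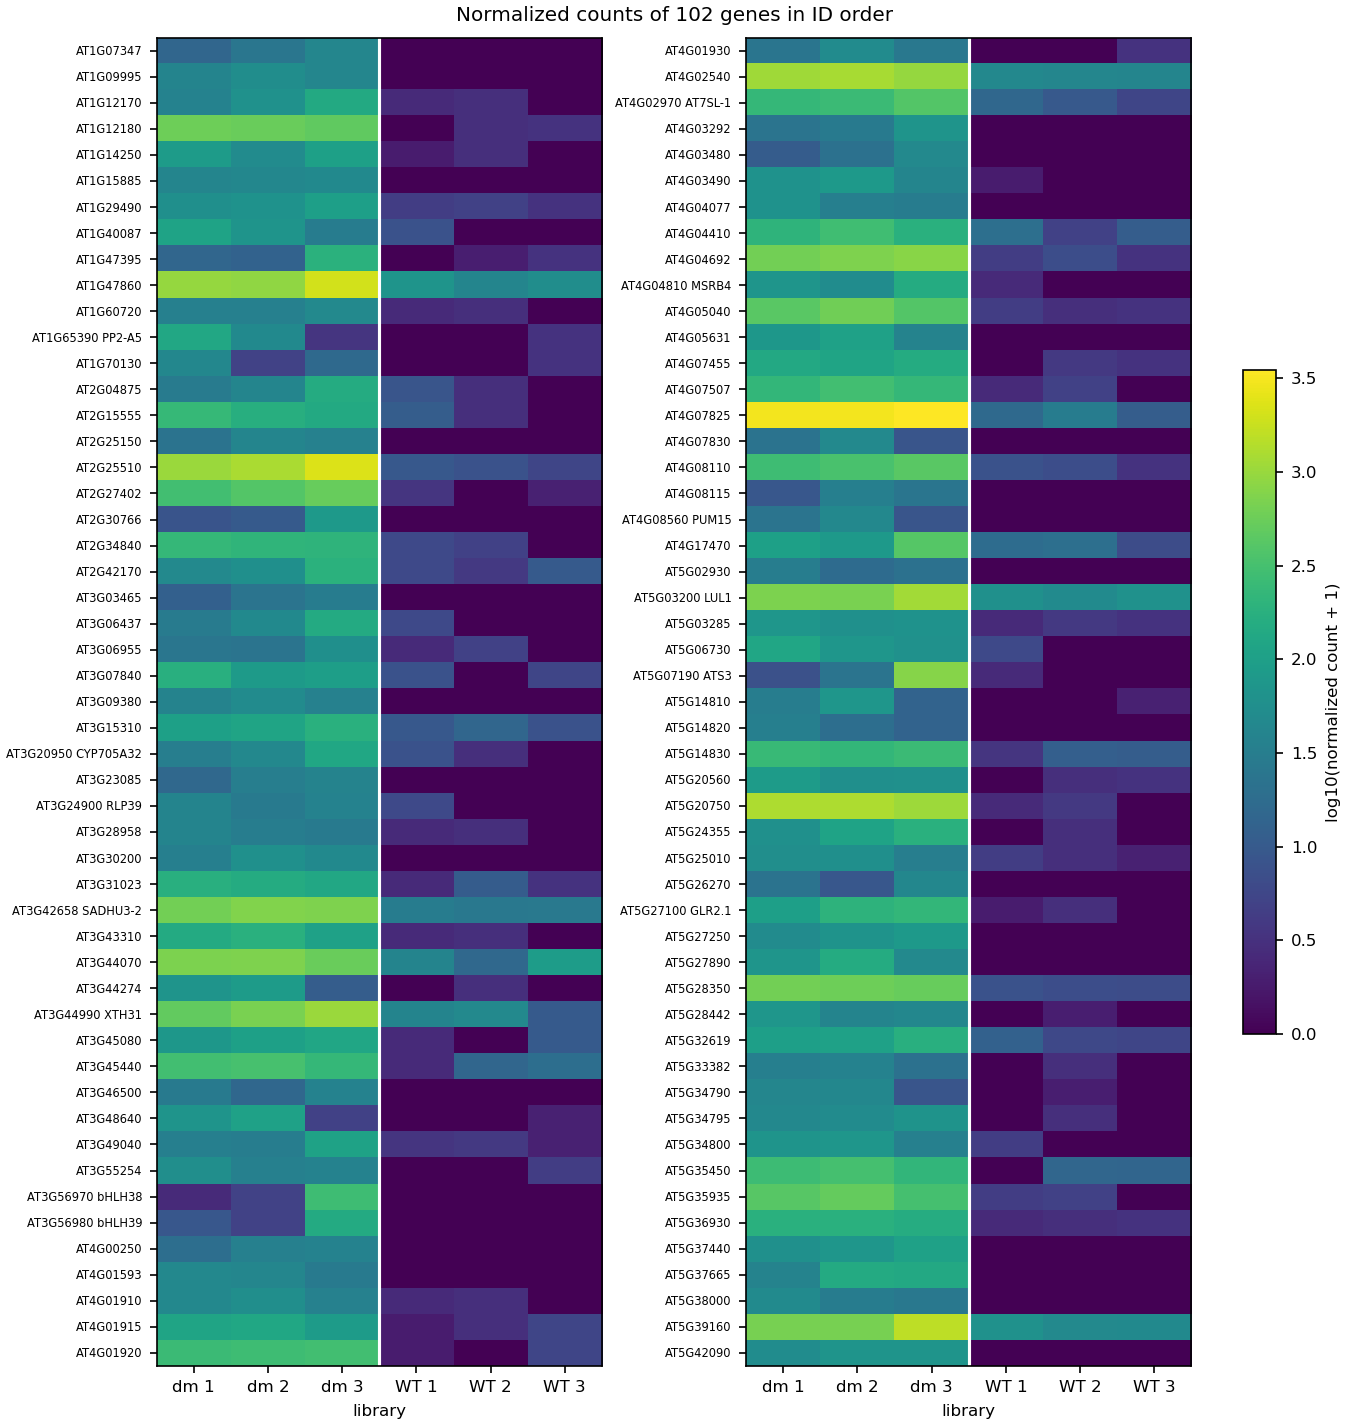
Normalized count of 102 of the 103 genes (rows, in ID order, in 2 columns of panels) in the 3 dm libraries, left of the white line, and the 3 WT libraries, right of it, on a log10(normalized count + 1) colour scale. The dark WT side is at or near 0 for most genes, while 11 genes have a WT mean of at least 10, and single dm libraries stand out for bHLH38, bHLH39, ATS3 and PP2-A5.

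The highest dm level was that of AT4G07825, an uncharacterized protein-coding gene. It had 3055, 3006 and 3508 normalized counts in the dm libraries, against 15.1, 29.4 and 10.1 in the WT libraries, a 175-fold difference. AT2G25510, also uncharacterized, had 1015, 1233 and 2301 in dm against 8.38, 6.86 and 4.51 in WT, 230.3-fold. Per kilobase of annotated transcript, these were also the highest dm levels of the set, at 2128 and 1995 normalized counts per kilobase. The pseudogene AT5G20750 had 1301, 1270.0 and 1046 in dm against 1.68, 2.94 and 0 in WT, and its 784-fold difference was the largest of the 55 genes with more than 3 WT reads. That fold rests on 5 WT reads in all and is imprecise.

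Several protein-coding genes followed. AT1G12180, annotated as a small heat shock-like protein, had 583, 536 and 473 normalized counts in dm against 0, 1.96 and 2.25 in WT, 378-fold. AT2G27402, annotated as a plastid transcriptionally active protein, had 295, 389 and 533 in dm against 2.52, 0 and 1.13 in WT, 334-fold. In both genes the dm and WT libraries were far apart, with WT near 0. Each had 4 WT reads in all, so the folds are imprecise. AT5G28350, a RIC1-like gene, had 619, 580.3 and 518 in dm against 6.71, 5.88 and 5.64 in WT, 94.2-fold. It shares 98.2% identity over 4141 bases with AT3G61480, whose counts were 984, 1233 and 1150 in dm and 934, 1219 and 1371 in WT, so reads may be split between the copies and its level is uncertain. The same holds for AT5G28442, a second RIC1-like gene, with 72.2, 38.5 and 42.8 in dm against 0, 0.98 and 0 in WT.

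The genes that WT did express at a low level include AT4G07825, with a WT mean of 18.2, and most of the other high dm means. LUL1 (AT5G03200), a RING-type ubiquitin ligase annotated as a paralog of LOG2, had 708, 670.4 and 1142 normalized counts in dm against 59.5, 49.0 and 60.9 in WT, 14.9-fold. XTH31 (AT3G44990), which remodels xyloglucan in the cell wall, had 494, 678 and 1021 in dm against 38.6, 46.0 and 9.02 in WT, 23.4-fold. AT3G44070, of glycosyl hydrolase family 35, which holds beta-galactosidases, had 704, 734 and 549 in dm against 38.6, 14.7 and 89.1 in WT, 13.97-fold. Each of these had transcript in every WT library. The germin-like gene AT5G39160 had 655, 659 and 1551 in dm against 60.4, 46.0 and 47.4 in WT, 18.6-fold. It shares 99.7% identity over 1030 bases with GER2 (AT5G39190), which went the other way at 2531, 2338 and 5030 in dm against 8397, 6111 and 6080 in WT (log2 change -1.13 ± 0.26, SE, limma adjusted p = 0.0277), so the split of reads between this pair is uncertain. LUL1 overlaps CPUORF47 (AT5G03190) on the opposite strand, which stood at 3467, 3256 and 4069 in dm against 1822, 1513 and 1855 in WT, and reads of overlapping genes cannot be assigned here because the strand setting of the counting is not given.

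Gene kinds were read from the reference annotation. By biotype, 71 members are protein coding, 19 are pseudogenes, 5 are transcribed pseudogenes, 6 are long non-coding RNAs and 2 are other non-coding RNAs. Pseudogenes made up 23.3% of the members, against 2.06% of the tested genes and 12.9% of all IDs. Non-coding RNAs made up 7.77% of the members, against 1.38% of the tested genes and 12.8% of all IDs. Protein-coding genes with no more specific kind made up 25.2% of the members, against 69.5% of the tested genes. The C1 domain and ankyrin kinds were added after the members had been seen. No share was tested.

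**Figure D2:**
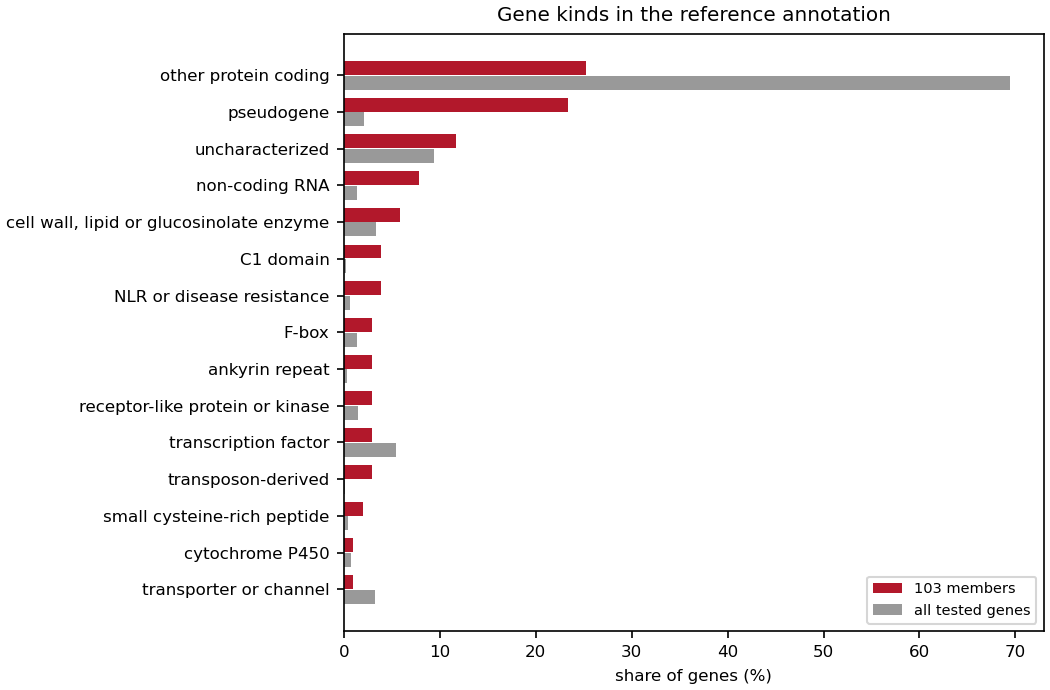
Share of genes (%) of each kind among the 103 members (upper bar of each pair, red) and among all tested genes (lower bar, grey). Pseudogenes make up 23.3% of the members and 2.06% of the tested genes, and other protein-coding genes 25.2% and 69.5%.

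Pseudogenes are mostly copies of genes that are thought to have lost their coding function, but this biotype also holds mobile elements such as SADHU3-2. Among the 24 members of this biotype, dm means ran from 21.1 to 1281 normalized counts. AT1G47860 had 956, 898 and 1989.6 normalized counts in dm against 67.1, 40.2 and 54.1 in WT, 23.8-fold, over an annotated transcript of 9594 bases. It shares 97.9% identity over 331 bases with AT2G13580, a pseudogene just short of the ratio, and both are uncertain for that reason. AT4G04692 had 622, 718 and 809 in dm against 3.35, 5.88 and 2.25 in WT, 187-fold. AT5G35935 had 419.5, 502 and 312 in dm against 3.35, 3.92 and 0 in WT, 169.7-fold. In these last 2 genes the lowest dm library stood far above every WT library. AT5G37665 had no WT read and 37.3, 145 and 136 in dm, at least 109.6-fold higher when set against 3 reads over the WT group. It is 99.4% identical over 5250 bases to AT2G25550, which had 1.62, 2.03 and 0 in dm and 0 in every WT library, so its level may hold reads of other copies. Of the remaining pseudogenes, AT4G07507, AT4G08110, AT5G14830, AT4G04410, AT3G31023, AT3G43310 and AT3G15310 averaged between 131 and 349 in dm and between 1.21 and 10.8 in WT. AT3G06437, AT3G23085, AT3G44274, AT4G07830, AT4G08115, AT5G14810, AT5G27250, AT5G33382, AT5G34790, AT5G34795 and AT5G34800 averaged between 21.1 and 74.0 in dm and under 2 in WT.

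Protein-coding genes with words of mobile elements in their product name gave 3 members, or 2.91% of the set against 0.120% of the tested genes. Pseudogenes were set apart by biotype before product names were searched. Those that descend from mobile elements are therefore not in this count, among them 1 Sadhu element. SADHU3-2 (AT3G42658), of a family of non-coding retrotransposons and counted here among the pseudogenes, had 615, 741 and 721 normalized counts in dm against 30.2, 25.5 and 25.9 in WT, 25.5-fold. The reference annotation states that its allele is methylated and silenced in some natural accessions. A related element went the other way: SADHU3-1 (AT3G44042) had 35.7, 10.1 and 42.8 in dm against 1807, 1636 and 1640 in WT (log2 change -6.02 ± 0.44, SE, limma adjusted p = 3.13e-05). The transposase genes AT1G40087 and AT3G30200 are 97.7% identical over 911 bases and count as 1 uncertain pair. AT1G40087 had 111, 67.9 and 30.2 in dm against 6.71, 0 and 0 in WT, and AT3G30200 had 33.3, 58.7 and 47.9 in dm against 0 in every WT library. The third, the reverse transcriptase-related AT1G60720, had 34.1, 34.4 and 45.4 in dm against 1.68, 1.96 and 0 in WT. It overlaps ATB2 (AT1G60710) on the opposite strand, which passed the test at 4632, 4601 and 4403 in dm against 2857, 3052 and 2588 in WT (limma adjusted p = 0.00438), so its reads are uncertain.

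Disease resistance genes of the NLR class, whose products detect pathogen proteins inside the cell, gave 3 members. AT5G35450, of the CC-NBS-LRR type, had 270.2, 311 and 213 normalized counts in dm against 0, 13.7 and 13.5 in WT, 29.1-fold. AT5G36930, of the TIR-NBS-LRR type, had 176, 174 and 154 in dm against 1.68, 1.96 and 2.25 in WT, 85.6-fold. In both genes the dm libraries were close to each other. AT5G25010 was placed with them by the words disease resistance in its product name, but it is a DUF1336 protein and no NLR, and it averaged 48.1 in dm and 2.15 in WT. This kind held 3.88% of the members and 0.588% of the tested genes.

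Receptor-like genes, which sense signals at the cell surface, gave 3 members, or 2.91% of the set against 1.43% of the tested genes. The lectin receptor kinase gene AT3G45440 had 291, 326 and 227 normalized counts in dm against 1.68, 13.7 and 18.0 in WT, 25.3-fold. It overlaps AT3G45443 on the same strand, which moved the other way with 69.8, 65.8 and 32.8 in dm against 132, 164 and 227 in WT (limma adjusted p = 0.0304), and its reads are uncertain. RLP39 (AT3G24900), a leucine-rich repeat receptor without a kinase domain, had 38.1, 28.4 and 36.5 in dm against 5.03, 0 and 0 in WT. AT1G70130, another lectin receptor kinase, lay just inside both limits of the choice, with 43.0, 4.05 and 15.1 in dm against 0, 0 and 2.25 in WT.

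C1 domain proteins carry a small cysteine- and histidine-rich zinc-binding fold. Their 4 members are 3.88% of the set, against 0.202% of the tested genes, and all lie near the start of chromosome 4. AT4G02540 had 1083, 1219 and 969 normalized counts in dm against 44.4, 41.1 and 40.6 in WT, 25.9-fold. AT4G01920 had 263, 281 and 292 in dm against 0.838, 0 and 4.51 in WT, 156-fold. AT4G01910 and AT4G01930 were lower, at means of 44.6 and 32.9 in dm against 1.21 and 0.752 in WT. The 4 thus differed in level, and the dm libraries of the 2 highest lay close together.

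The 3 ankyrin repeat genes, whose repeats bind other proteins, also lie on chromosome 4. They are 2.91% of the set, against 0.290% of the tested genes. AT4G05040 had 428, 604 and 398 normalized counts in dm against 3.35, 1.96 and 2.25 in WT, 189-fold. AT4G03490 had 64.1, 78.0 and 40.3 in dm and a single read in WT, a read ratio of 193 with a 95% exact counting interval of 34.3 to 7680.4. AT4G03480 had 9.74, 20.3 and 45.4 in dm and no WT read, at least 26.0-fold higher.

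F-box proteins choose the targets of ubiquitin ligases, and 3 members encode them, or 2.91% of the set against 1.30% of the tested genes. AT1G12170 had 36.5, 60.8 and 141 normalized counts in dm against 1.68, 1.96 and 0 in WT, 65.6-fold. AT3G49040 had 33.3, 30.4 and 108 in dm against 2.52, 2.94 and 1.13 in WT, 26.1-fold, and in both genes the third dm library was the highest. AT5G02930 averaged 22.4 in dm with no WT read, and it overlaps AT5G02940 on the opposite strand.

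Words in the product names placed 6 members with enzymes of cell wall, lipid or glucosinolate, which does not show what each enzyme acts on. This kind held 5.83% of the members and 3.31% of the tested genes. Besides XTH31 and AT3G44070 they were a pectin lyase-like gene (AT3G07840), a peroxidase (AT5G06730), a glycosyl hydrolase (AT5G20560) and an acyltransferase (AT2G25150). They averaged 118, 85.8, 67.6 and 32.3 normalized counts in dm against 3.74, 1.68, 1.40 and 0 in WT, in that order of genes. GLR2.1 (AT5G27100), a glutamate receptor-like ion channel, had 99.8, 195 and 219 in dm and 3 WT reads, and MSRB4 (AT4G04810), which repairs oxidized methionine, had 69.0, 51.7 and 149 in dm and 2 WT reads. CYP705A32 (AT3G20950), a cytochrome P450, averaged 67.9 in dm and 2.89 in WT. The defensin-like peptide gene AT5G32619 had 99.0, 106 and 170.1 in dm against 11.7, 4.90 and 4.51 in WT, and AT3G55254, of the self-incompatibility S1 family, had 56.0, 34.4 and 36.5 in dm against 0, 0 and 3.38 in WT.

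Of the 8 non-coding RNAs, AT2G15555 was the highest, with 235, 168 and 141 normalized counts in dm against 10.1, 1.96 and 0 in WT, 45.2-fold. AT2G04875 had 28.4, 40.5 and 151 in dm against 7.55, 1.96 and 0 in WT, with the third dm library highest. The others, AT1G07347, AT3G03465, AT3G06955, AT4G01593, AT4G04077 and AT5G03285, averaged between 21.3 and 65.0 in dm, and 4 of them had no WT read. AT7SL-1 (AT4G02970) is listed as protein coding in the reference table but is annotated there as 7SL RNA, the RNA of the signal recognition particle. It had 226, 258 and 398 in dm against 14.3, 8.82 and 4.51 in WT, 32.01-fold, in libraries made from polyadenylated RNA.

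The third transcription factor beside bHLH38 and bHLH39 was AT4G00250, of the storekeeper family, with 17.9, 34.4 and 36.5 normalized counts in dm and no WT read. Transcription factors made up 2.91% of the members, against 5.39% of the tested genes. The remaining protein-coding members of known family were AT1G09995, AT1G14250, AT1G29490, AT2G34840, AT2G42170, AT3G09380, AT3G28958, AT3G45080, AT3G46500, AT4G03292, AT4G17470, AT5G14820, AT5G37440, AT5G38000, AT5G42090, PP2-A5, PUM15 and ATS3. The highest of them with steady dm values was AT2G34840, which encodes the epsilon subunit of the coatomer of transport vesicles, with 226, 209 and 200.3 in dm against 5.03, 3.92 and 0 in WT, 71.0-fold. AT5G37440, a DnaJ-domain chaperone, had 60.05, 72.9 and 106 in dm and no WT read, at least 82.3-fold higher. AT5G42090 had 52.7, 67.9 and 68.0 in dm and no WT read, but it is 99.2% identical over 379 bases to SADHU6-1 (AT3G02515), one of the 8 genes left out, which had 1339, 1146 and 935 in dm, so its reads are uncertain. Uncharacterized proteins numbered 12, or 11.7% of the members against 9.42% of the tested genes, and 5 of them had no WT read.

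Members had a single exon more often than the tested genes did, at a share nearer to that of all genes. Of the 103, 45 have 1 exon, or 43.7%, against 17.6% of the tested genes and 37.0% of all genes. A gene without annotated exons was counted as 1 exon. Pseudogenes and non-coding RNAs are among the 45, and the share was not split by gene kind. A near-identical copy, at least 95% identical over at least 150 bases, exists for 25 members, or 24.3%, against 3.58% of the tested genes and 8.64% of all genes. Another gene overlaps 18 members, or 17.5%, against 29.0% of the tested genes. The median annotated transcript was 1423 bases in the members and 1697 in the tested genes, and the median GC content was 40.5% in the members and 41.3% in the tested genes. These are descriptions, and none was tested.

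Members were spread over all 5 chromosomes, with 14, 8, 25, 25 and 31 on chromosomes 1 to 5. That is 13.6%, 7.77%, 24.3%, 24.3% and 30.1% of the members, against 26.1%, 15.2%, 19.9%, 15.1% and 23.0% of the tested genes. In windows of 500 consecutive IDs, 36 of 76 windows held no member. The first 4 of 12 windows of chromosome 4 held 24 of its 25 members, which is 23.3% of all members and 2.68% of the tested genes. Windows 7 to 10 of 17 on chromosome 5 held 20 members, or 19.4% of all members, and 3.73% of the tested genes. The windows were grouped after the positions had been seen. Neither targeted gene lay inside such a group: the member nearest to EML1 is AT3G09380, 365 IDs away, and the member nearest to EML3 is AT5G14810, 194 IDs away.

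The same conditions with the genotypes exchanged, high in WT and low in dm, held for 87 genes, with 13, 5, 44, 14 and 11 on chromosomes 1 to 5. The targeted gene EML3 is 1 of them. On chromosome 3, windows 9 to 12 of 15 held 13 members and 21 of these reverse genes. The first 4 windows of chromosome 4 held 24 members and 6 reverse genes. Within 5 IDs of a reverse gene lay 5 members, or 4.85%, against 1.87% of the other tested genes. In 2 of these cases the IDs are adjacent. The lectin receptor kinase gene AT3G45440, described above, is next to AT3G45430 of the same family, which had 1.62, 0 and 0 in dm against 55.3, 7.84 and 34.9 in WT. The uncharacterized gene AT5G26270, with 21.1, 8.10 and 42.8 in dm and no WT read, is next to the TRAF-like gene AT5G26280, which had 0, 2.03 and 0 in dm against 77.1, 56.8 and 24.8 in WT. Another case, 3 IDs apart, is AT3G06437, a pseudogene with 29.2, 46.6 and 146 normalized counts in dm against 5.03, 0 and 0 in WT. Its reverse partner AT3G06433 had 26.0, 16.2 and 34.0 in dm against 249, 325 and 469 in WT, and the pair is 98.1% identical over 776 bases, so reads may be split between them.

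**Figure D3:**
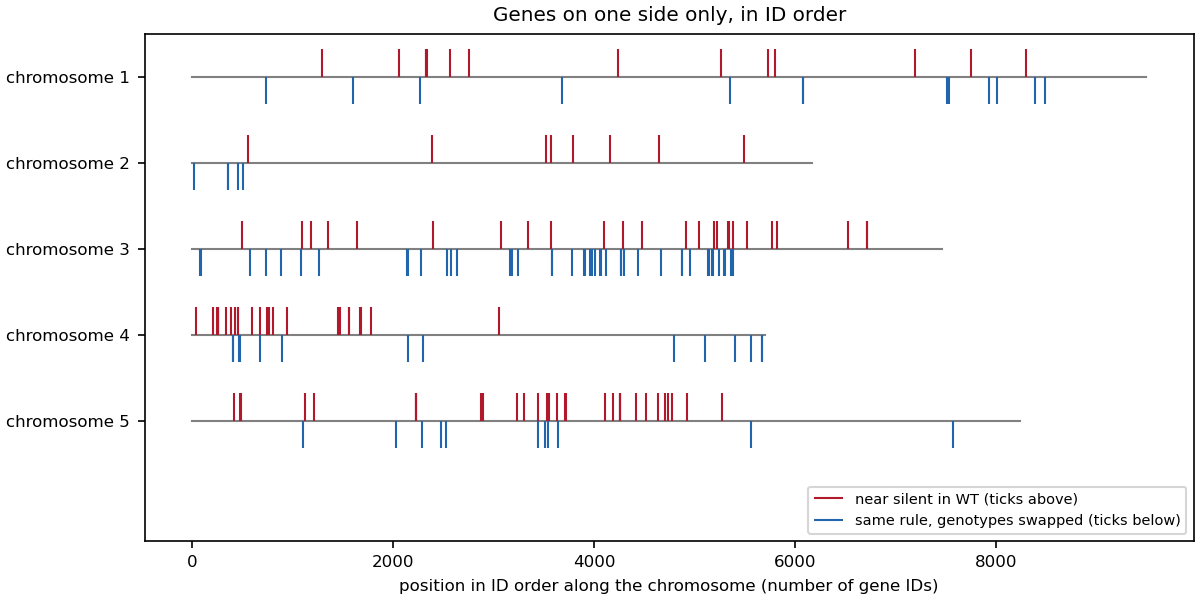
Position of the 103 members (red ticks above each line) and of the 87 genes that meet the same conditions with the genotypes exchanged (blue ticks below) along the 5 chromosomes, in number of gene IDs. The start of chromosome 4 holds 24 members and 6 reverse genes in its first 2000 IDs, while the 44 reverse genes of chromosome 3 reach from its start to past its middle.

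Runs of neighbours were read from the order of the gene IDs, which follows the reference order for 91.7% of consecutive IDs and for 99.2% of consecutive protein-coding IDs. With at most 5 IDs from one member to the next there were 8 runs, holding 21 of the 103 members, or 20.4%. Of the other tested genes, 2.09% lay within 5 IDs of a member. When only protein-coding genes were ordered, 11 members were in runs. Of the 8 runs, 4 hold genes of 1 kind only.

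The longest run holds 4 members in 5 consecutive IDs near the start of chromosome 4. It joins the C1 domain genes AT4G01910, AT4G01920 and AT4G01930 with AT4G01915, an uncharacterized gene that had 118, 127 and 86.9 normalized counts in dm against 0.838, 1.96 and 4.51 in WT. The ID between them that is no member, AT4G01925, is also a C1 domain gene and had 0, 2.03 and 0 in dm and 0 in every WT library. On chromosome 4 the 2 ankyrin genes AT4G03480 and AT4G03490 are adjacent. AT4G07825, the gene with the highest dm level, is next to the pseudogene AT4G07830, which had 21.1, 45.6 and 7.56 in dm and no WT read. AT4G07830 has 6 near-identical copies, AT1G36120 among them over 1341 bases, so its level is uncertain.

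A run of 3 members on chromosome 1 includes AT1G12170 and AT1G12180, and other genes in its stretch did not follow. AT1G12190, an F-box gene, had 30.8, 24.3 and 45.4 normalized counts in dm against 20.1, 21.6 and 33.8 in WT (limma adjusted p = 0.731). FMO (AT1G12200), a flavin-binding monooxygenase, had 374, 371 and 679 in dm against 914, 929.6 and 929.0 in WT (log2 change -1.02 ± 0.22, SE, limma adjusted p = 0.0235). Members thus lay beside a gene that went the other way and one that was not called.

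The run on chromosome 5 nearest to EML3 holds AT5G14810, AT5G14820 and AT5G14830. AT5G14830, a pseudogene, had 247, 225 and 258 normalized counts in dm against 2.52, 10.8 and 10.1 in WT, 31.1-fold. AT5G14820, a pentatricopeptide repeat gene of the family that acts on organelle RNA, had 32.5, 18.2 and 12.6 in dm and no WT read, and is 99.7% identical over 1871 bases to AT3G62540. Another copy, AT3G62470, is 98.6% identical over 1993 bases and had 269, 265 and 294 in dm against 328, 196 and 255 in WT. AT5G14810 had 30.8, 72.9 and 12.6 in dm and 1 WT read, and is 99.8% identical over 2151 bases to AT4G32212, which had 0 in every dm library and 6.71, 0 and 20.3 in WT. The next ID, the transcribed pseudogene AT5G14840, is no member but had 946, 970.2 and 1536 in dm against 161, 147 and 216 in WT (log2 change 2.69 ± 0.23, SE, limma adjusted p = 1.03e-04). Levels in this run are uncertain because of the copies.

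The other runs are pairs and 1 triple. The pseudogenes AT5G34790, AT5G34795 and AT5G34800 averaged 30.5, 53.3 and 57.8 normalized counts in dm against 0.327, 0.653 and 1.12 in WT. AT4G08110 had 277, 334 and 436 in dm against 6.71, 5.88 and 2.25 in WT, while AT4G08115 had 8.11, 32.4 and 22.7 in dm and no WT read. Between them AT4G08113 had 16.2, 28.4 and 115 in dm against 41.9, 54.9 and 13.5 in WT and was not called (limma adjusted p = 0.892). The remaining pair is bHLH38 and bHLH39.

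Genes beside the members were not used in the choice, and their calls can be counted. Over all 6 libraries limma called 1476 of 21751 tested genes, 802 higher and 674 lower in dm. Of the 180 tested genes that are the nearest to a member on either side, 28 passed the threshold, or 15.6%, with 14 higher and 14 lower in dm. A nearby gene far higher in dm would itself be a member and is not counted, while a gene far lower stays. The directions are thus not on equal terms. Without the reverse genes, 25 of 176 passed, with 14 higher and 11 lower in dm. Of all tested genes that are no members, 6.42% passed. At 2 to 10 steps from a member the share was between 6.80% and 14.7%. The median size of the log2 change was 0.41 in the nearest genes and 0.26 in all tested genes that are no members, and 23.9% of the nearest genes differed at least 2-fold, against 11.1%. Without the genes that overlap a member or share a near-identical stretch with one, 22 of 167 passed, or 13.2%. These counts moved with the libraries: leaving out dm replicate 1 gave 15 of 176 nearest genes, dm replicate 2 gave 16 of 175, WT replicate 1 gave 14 of 180 and WT replicate 2 gave 11 of 180. The share among all other tested genes moved too, to 2.83%, 2.43%, 3.43% and 2.61% in the same order, and the nearest genes were above it each time, at 8.52%, 9.14%, 7.78% and 6.11%. The difference between nearest and other genes was not tested.

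**Figure D4:**
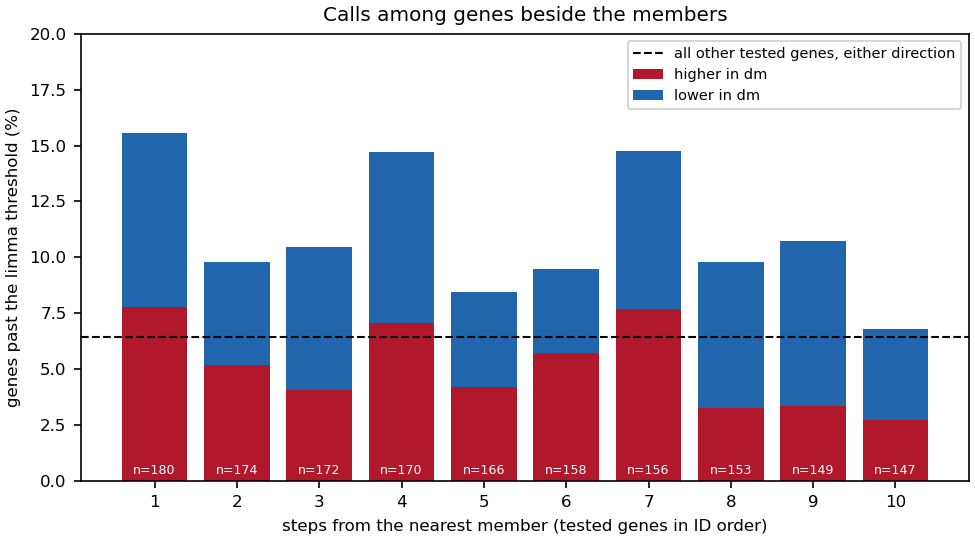
Share of tested genes that are no members (%) passing the limma threshold at 1 to 10 steps from the nearest member in ID order, with the part higher in dm (red) and lower in dm (blue) stacked and the number of genes at the foot of each bar. The dashed line is the 6.42% of all tested genes that are no members, and the nearest genes reach 15.6%.

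Among the nearest genes that passed, both directions held large differences. UBQ11 (AT4G05050), a polyubiquitin gene beside the ankyrin gene AT4G05040, had 21779, 21244 and 20060 normalized counts in dm against 8704, 8440 and 8062 in WT (log2 change 1.32 ± 0.10, SE, limma adjusted p = 5.12e-05). MSRB5 (AT4G04830), of the same enzyme family as its neighbour MSRB4, had 355, 389 and 664 in dm against 127, 108 and 114 in WT (log2 change 1.95 ± 0.27, SE, limma adjusted p = 0.00201). AT5G27110, beside GLR2.1, had 127, 80.0 and 126 in dm against 17.6, 19.6 and 18.0 in WT (log2 change 2.50 ± 0.42, SE, limma adjusted p = 0.0068). AT4G04402, annotated as a two-component phosphorelay mediator and beside the pseudogene AT4G04410, had 1.62, 5.06 and 2.52 in dm against 301, 240.0 and 260.4 in WT (log2 change -6.12 ± 0.52, SE, limma adjusted p = 9.57e-05). AT4G04402 is among the reverse genes described above. AT3G24927, a transcribed pseudogene, had 21.9, 18.2 and 15.1 in dm against 219.7, 147 and 199.5 in WT (log2 change -3.28 ± 0.38, SE, limma adjusted p = 7.59e-04). These genes were picked after their values had been seen.

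The dm libraries did not always have like values for a member. In 55 members the highest dm library was under 2 times the lowest. In 16, or 15.5%, it was at least 5 times the lowest, against 3.23% of 20175 other tested genes with a dm mean of at least 20. These sets were not matched on level, and 35 members had a dm mean under 50, where counting error is relatively larger. A single high library can also lift a dm mean over the limit. The difference in share was not tested. The highest library was the first for 23 members, the second for 31 and the third for 49. The third was thus highest in 47.6% of the members, and in 40.1% of the tested genes.

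In 5 members the third dm library was at least 5 times the mean of the other two. bHLH38 (AT3G56970) had 1.62, 4.05 and 273 normalized counts in dm, and its neighbour bHLH39 (AT3G56980) had 8.11, 4.05 and 145, with no WT read for either. Both encode transcription factors that act with FIT in the response to iron shortage. ATS3 (AT5G07190), expressed preferentially in the embryo, had 6.49, 22.3 and 794 in dm against 1.68, 0 and 0 in WT. AT1G47395 and AT2G30766 had 13.8, 12.2 and 181, and 7.30, 9.11 and 79.4, in dm, with means of 1.08 and 0 in WT. The reference annotation calls both products uncharacterized, which does not mean that no role is known. In all 5 the first and second dm libraries were low. The seed storage genes given above are high in the same library. So is the embryo sum, in which ABI3, NF-YB6 and WOX2 stood above every WT library there. LEC1 did not, at 421 against 572, 509 and 515 in WT, and FUS3, at 199, lay within the WT range. The part of these genes in the members' values was not tested.

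The other genes of the bHLH38 group, looked at after these values had been seen, were also highest in the third dm library. BHLH100 (AT2G41240) had 1.62, 6.08 and 239 normalized counts in dm against 1.68, 1.96 and 0 in WT. BHLH101 (AT5G04150) had 4.87, 0 and 32.8 in dm and 0 in every WT library. bHLH38, bHLH39 and BHLH100 did not pass the limma threshold, and BHLH101 was below the filter and not fitted. Of 6 further genes looked at in the same way for a link to iron, none passed either (limma adjusted p = 0.305 to 0.947). Among these 6, 4 were highest in the third dm library. AT1G47400, whose product is also called uncharacterized in the reference annotation, had 22.7, 0 and 198 in dm against 1.68, 1.96 and 0 in WT. FRU (AT2G28160), which is FIT, had 16.2, 0 and 42.8 in dm against 10.1, 5.88 and 14.7 in WT. The iron regulators BTS (AT3G18290), with 1822, 2126 and 3461 in dm against 1354, 2093 and 1871 in WT, and PYE (AT3G47640), with 222, 227 and 316 in dm against 200.4, 239 and 254 in WT, are the others. The iron transporter gene IRT1 (AT4G19690) had 33.3, 42.5 and 10.1 in dm against 51.1, 5.88 and 15.8 in WT, and the ferric reductase gene FRO2 (AT1G01580) had 14.6, 16.2 and 15.1 in dm against 8.38, 7.84 and 20.3 in WT. BHLH100 is 1 of 24 genes that failed only because the lowest dm library did not stand above the highest WT library. Storage protein genes such as CRU2 (AT1G03880), with 8.11, 2.03 and 4672 in dm against 5.03, 7.84 and 0 in WT, are others. CRU3 (AT4G28520) had 13.0, 20.3 and 17163 in dm against 31.9, 35.3 and 22.5 in WT. Its first and second dm libraries thus lay below every WT library.

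The third dm library was the lowest of the dm libraries in 38 members, and by the widest margin in 4 of them. PP2-A5 (AT1G65390), a phloem protein, had 134, 46.6 and 2.52 normalized counts in dm against 0, 0 and 2.25 in WT. AT3G48640, an uncharacterized gene, had 66.5, 105 and 3.78 in dm against 0, 0 and 1.13 in WT. The pseudogene AT3G44274 had 68.2, 88.1 and 10.1 in dm against 0, 1.96 and 0 in WT, and AT5G34790 had 41.4, 42.5 and 7.56 in dm against 0, 0.98 and 0 in WT. In the first and second of these genes the third dm library stood just above the highest WT library. The other members with a spread of at least 5 times were AT1G70130, AT2G04875, AT3G06437, AT4G07830, AT5G14810, AT5G26270 and PUM15 (AT4G08560), an RNA-binding protein gene with 21.9, 44.6 and 7.56 in dm and no WT read.

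**Figure D5:**
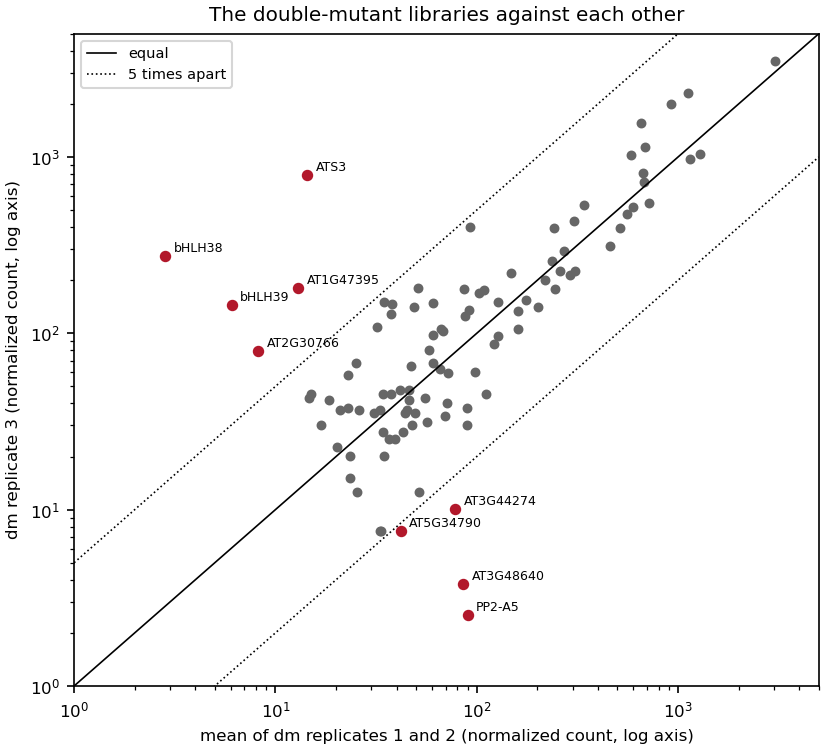
Each member's normalized count in dm replicate 3 (y axis) against its mean in dm replicates 1 and 2 (x axis), both on log axes, with lines at equal values and at 5 times apart. The 5 labelled genes above the upper line include bHLH38, bHLH39 and ATS3, and the 4 labelled genes below the lower line include PP2-A5.

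Of the single libraries left out, the third dm library changed the list most. Without it 100 genes met the conditions and 87 of them were among the 103, so 16 members were lost. Those lost include bHLH38, bHLH39, ATS3, AT1G47395, AT2G30766, CYP705A32 and the non-coding RNAs AT1G07347, AT2G04875, AT3G03465 and AT3G06955. Leaving out any other single library lost between 2 and 5 members. At the edge of the choice, AT1G70130, AT3G06955 and AT3G15310 had ratios of 12.4, 12.4 and 12.5 just inside the limit, and AT2G13580, RGXT2 (AT4G01750) and AT5G25410 had 11.8, 11.8 and 11.7 just outside it. For the mean, AT1G70130, AT4G08115 and AT5G14820 had dm means of 20.7, 21.1 and 21.1 just inside, and AT1G66320, AT3G26250 and AT5G28415 had 19.6, 18.9 and 18.2 just outside.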

How the data were processed

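The signal analysed was a deposited table of normalized counts, in which each library's gene counts share 1 divisor. DESeq2, the normalizer per the file headers, is named in the submitters' processing notes beside Trim Galore, STAR 2.5.2a, SAMtools, featureCounts and Subread. Build, annotation, strand setting, treatment of multi-mapping reads and counting of mates are not stated in labels or files. The authors' deposited table also holds log2 fold changes, a test score and p-values with adjusted p-values, per the file headers.

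Members and gene lists were chosen with earlier results of these data known. Whole reads were recovered in 100% of values, to within 1e-06 of a whole number, with 26771227 to 39246167 reads per library. Genes were kept at a mean value of 10 or more (21751 genes) and fitted by limma 3.58.1 (R 4.3.3) to log2(value + 1) with the variance trend, dm minus WT, two-sided, Benjamini-Hochberg adjusted, threshold 0.05. Fold changes on this scale understate low genes. Folds without a log are ratios of mean normalized counts. With 0 WT reads, folds are set against 3 reads over the WT group. With 1 to 3, read ratios carry a 95% exact binomial interval, which covers counting error only and takes reads as independent. Low WT counts were often even, as with 2, 2 and 0 reads in AT1G12170. If both mates of a fragment were counted, which was not tested, the interval is too narrow. Folds with more than 3 WT reads carry no interval.

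Names, kinds, order and overlaps come from the TAIR10.1 reference, which held 37051 of the 37336 IDs and all 103 members, and copies from BLAST 2.17.0 on its transcripts. Named members were, by rule, the 12 highest dm means, the 12 largest ratios, members of runs, the 2 highest of each kind, those next to a limit, and those with a dm spread of at least 5 times. Others are named to account for the members and were chosen after their values were seen. Alternatives were pseudocounts 0.5 and 5, other filters, scalings and limits, a replicate block, each library left out, and edgeR 4.0.16 and DESeq2 1.42.0 on recovered reads. The limma script was tested on simulated data. A single member is counted but its values are not reported here.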

Additional observations from a re-analysis of the deposited data

How the results depend on the processing

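Every member kept a log2 change above 0 in each setting in which it was fitted, the lowest being 1.86. The choice required every dm library to stand above every WT library, so the sign was largely fixed in advance and nothing is read from it. The count of genes called over the whole table, 1476, was 2363 with DESeq2 on recovered reads and between 571 and 2613 with one library left out, 2613 without dm replicate 3. Scaling to one total per library turned the split of 802 higher and 674 lower into 615 higher and 864 lower. The list of 103 fell to 49 with a constant of 5 in the ratio and to 68 with a minimum dm mean of 50, and ran from 100 to 121 with one library left out. Members in runs fell from 21 to 11 among protein-coding genes only, and were 19 without the 5 members in which dm replicate 3 was at least 5 times the mean of the other dm libraries, a setting chosen after seeing the data. Counting the 3 nearest tested genes on each side gave 63 of 526 called instead of 28 of 180, and leaving out one library gave 11 to 31, most of those settings chosen after seeing the data. Replicate numbers did not pair the samples, with correlations of same-numbered deviations of -0.0788, -0.00199 and -0.169. The replicate block gave 1203 calls over the whole table, 25 of 180 nearest genes and 65 of the 103 members, against 87. edgeR called 98 members, DESeq2 all 100 that had an adjusted p, and limma without dm replicate 2 called 45 of the 96 fitted. Of the tested genes that are no members, edgeR called 5.79%, limma without dm replicate 2 called 2.43% and the replicate block 5.26%. DESeq2 called 2363 genes over the whole table, members included. The members were chosen from this contrast, so nothing is read from their counts. Of 837 values of 59 named members under an alternative, 46 moved by more than the spread, each under DESeq2, edgeR or a pseudocount of 5. That 0 changed sign follows largely from the choice of members. The cause was not tested for any of these. With 3 libraries a group, low counts in WT limit the folds of most members.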
